A study of Rattus norvegicus with 30 samples.

Results

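The mRNA of 10 genes of the endothelin, nitric oxide and natriuretic peptide systems was followed in the kidney of Sprague-Dawley rats that were switched from a low to a high salt diet. They were chosen by name: the endothelin genes *Edn1*, *Ece1*, *Ednra* and *Ednrb*, the nitric oxide synthases *Nos1*, *Nos2* and *Nos3*, and the natriuretic genes *Npr1*, *Npr3* and *Corin*. The choice was made with earlier results of these data known. Of these 10 members, 9 had a row among the 32545 genes of the expression table, and *Nos2* was not analysed here. Male rats from Envigo, with no transgene, were kept on a purified diet with 0.4% NaCl (LS). The rats of the other groups were then fed 4.0% NaCl for 14 d (HS14) or 21 d (HS21). The study's methods place the kidney collection in the section on rats fitted with flow probes. The sources used here do not say whether the sequenced rats had that surgery. Poly(A) RNA of the right kidney was sequenced separately for the cortex (Cx) and the outer medulla (OM), with 5 libraries in each of the 6 groups of tissue and diet and 30 in all. The study's methods give an age for rats fitted with flow probes, but the sources used here do not tie it to the sequenced rats or say how long the LS rats stayed on their diet, so days on the HS diet and age cannot be told apart.

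Endothelin-1 is a peptide of endothelial and collecting duct cells. It constricts vessels through the A receptor, and through the B receptor it lowers sodium reabsorption and releases nitric oxide. Nitric oxide and the natriuretic peptides both raise cyclic GMP, which relaxes vessels and favors salt excretion, and the kidney is known to draw on all 3 systems when salt intake is high.

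Depth was alike in most libraries, with between 12748841 and 21842843 counts on genes in 29 of the 30 libraries and 5408126 counts in OM HS14 replicate 10. The tissue labels were checked with markers. On the LS diet all 5 thick ascending limb markers were higher in the OM than in the Cx, and all 7 podocyte markers and 7 of 8 proximal tubule markers were lower. OM LS replicate 2 stood apart. Its summed level of 4 distal convoluted tubule markers was 390.3 CPM (read counts scaled to the library size), against 29.9 to 43.5 in the other 4 OM LS libraries, and its 8 proximal tubule markers summed to 12106 CPM, against 557 to 5200. OM LS replicate 5 stood apart in another way. It had the lowest proximal tubule sum, 557 CPM, and its principal cell markers summed to 2606 CPM, against 601 to 1299 in the other 4. For the OM ratios of the members named, values without OM LS replicate 2 or the shallow library are given as well. In these bulk samples, fewer cells of a type and less RNA per cell cannot be told apart, and *P* values measure the spread between libraries.

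The promoters of *Edn1* and *Nos3* are shown because both genes rose in the Cx at HS21 and because, of the 9 members, these 2 held the letters GATAA, the core of the site of GATA factors, in the 250 bases upstream of the gene start. The sequences are those of RefSeq on the GRCr8 build, read 5′ to 3′ on the gene strand. Capitals mark the letters GATAA on either strand. They also mark the TATA box, searched as TATAAA. The GC box was searched as GGGCGG and is in capitals too. The *Edn1* sequence covers bases -250 to -101 from the gene start, at chr17:22666788-22666937 on the minus strand, and the *Nos3* sequence bases -250 to -1, at chr4:11706582-11706831 on the minus strand.
Edn1: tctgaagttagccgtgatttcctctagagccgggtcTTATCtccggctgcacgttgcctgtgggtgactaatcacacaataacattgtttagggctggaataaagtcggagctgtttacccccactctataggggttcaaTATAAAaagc
Nos3: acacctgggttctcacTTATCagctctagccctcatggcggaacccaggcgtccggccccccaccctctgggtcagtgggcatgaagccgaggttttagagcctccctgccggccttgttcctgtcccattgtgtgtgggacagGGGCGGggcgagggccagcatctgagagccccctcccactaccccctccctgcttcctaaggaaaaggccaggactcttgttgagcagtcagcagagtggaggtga

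All 9 members had a promoter in the table. GATAA was found on either strand in 2 of them and in 23.5% of all 33469 promoters of this length. TATAAA was found in *Edn1* alone among the members and in 12.9% of all promoters. GGGCGG was found in 4 members, *Ece1*, *Nos1*, *Nos3* and *Npr1*, and in 30.5% of all promoters. TGACTCA, the letters of an AP-1 site, was found in *Nos1* alone and in 4.05% of all promoters. No matches overlapped, and *Ednra*, *Ednrb*, *Npr3* and *Corin* held none of the 4 motifs. A match describes the letters of the window and does not show that a factor binds there.

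On the LS diet the members spanned a wide range of levels per length (CPM per kilobase of gene length). In the Cx, *Ednrb* was highest at 23.9 ± 1.33 CPM per kilobase (SD, n = 5, as for all group values), followed by *Ece1* at 18.3 ± 1.2, *Npr3* at 12.6 ± 1.42 and *Npr1* at 7.86 ± 0.982. *Nos3* stood lower, at 2.73 ± 0.225 CPM per kilobase. *Ednra*, *Edn1* and *Nos1* followed at 1.74 ± 0.361, 1.55 ± 0.296 and 1.36 ± 0.278 CPM per kilobase, with libraries that overlapped from one gene to the next, whereas the ranges of the genes above them did not overlap. *Corin* was last, with reads in 1 of the 5 libraries. In the OM on the same diet, *Ece1* (23.1 ± 2.90 CPM per kilobase) and *Ednrb* (22.2 ± 9.60) were again the highest and could not be separated from each other. *Npr1* followed at 7.78 ± 2.66 CPM per kilobase, and every neighboring pair in the OM order overlapped.

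**Figure D1:**
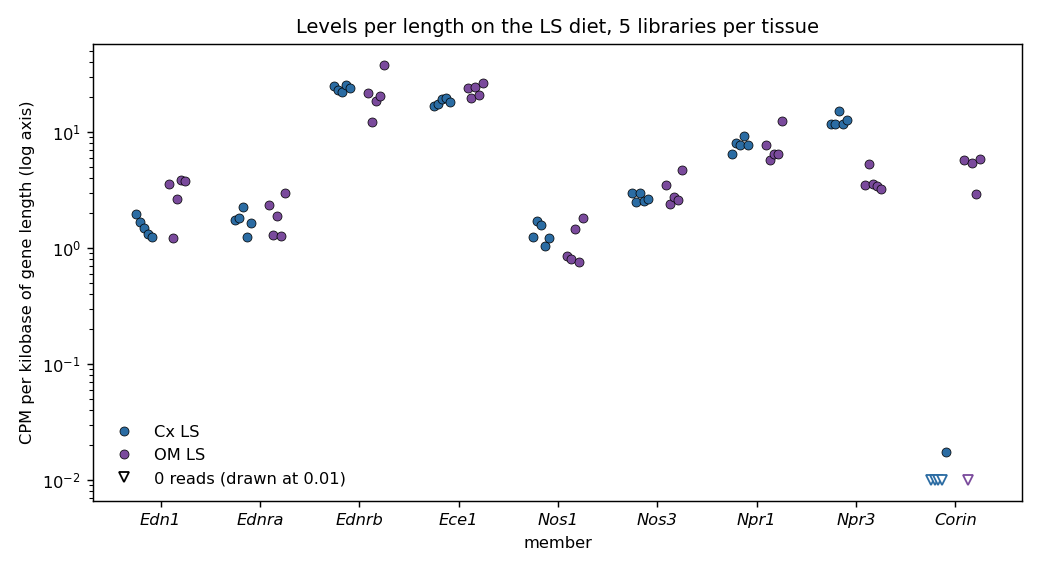
Level of each member per kilobase of gene length on a log axis, in the 5 Cx LS and 5 OM LS libraries, with libraries without a read drawn as open triangles at 0.01. *Npr3* was lower in every OM library than in every Cx library, and *Corin* was read in 4 of 5 OM LS libraries but in 1 of 5 Cx LS libraries.

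Between the tissues on the LS diet, 3 members differed at an adjusted *P* under 0.05, *Edn1* and *Ece1* being higher in the OM and *Npr3* lower. Over all 14295 genes tested in that comparison, 21.3% were higher and 19.5% lower in the OM, and 3 of the 8 members tested is a share near that of all genes together. *Npr3*, the clearance receptor of natriuretic peptides, measured 24.1, 24.1, 30.8, 24.1 and 26.0 CPM in the Cx and 7.13, 10.9, 7.25, 6.99 and 6.63 CPM in the OM, with no overlap (log2 ratio -1.74 ± 0.15, adjusted *P* = 1.67e-05). The highest OM value was that of replicate 2. *Ece1*, which cuts the endothelin precursor to the active peptide, was higher in the OM in 4 of 5 libraries (log2 ratio 0.33 ± 0.09, adjusted *P* = 0.0134). The OM level of *Edn1* was above every Cx library in 4 of 5 libraries and below all of them in replicate 2 (log2 ratio 0.96 ± 0.29, adjusted *P* = 0.0240). Without that replicate the log2 ratio of *Edn1* was 1.14 ± 0.19 with an adjusted *P* of 0.000695, that of *Npr3* -1.90 ± 0.10 with an adjusted *P* of 3.04e-07 and that of *Ece1* 0.37 ± 0.08 with an adjusted *P* of 0.00239. The *Edn1* call was lost in 5 of the 10 fits with 1 library omitted, namely Cx LS replicate 3, 4 or 5 or OM LS replicate 1 or 4, where the adjusted *P* was as high as 0.0647. Per the study's methods both tissues were cut from the same kidneys, but no source used here says which Cx and OM libraries share a rat, and the libraries were fitted as unpaired. With the replicate number as a block the *Edn1* call was lost as well (adjusted *P* = 0.0770).

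*Corin* (ENSRNOG00000002302; chromosome 14, 38247791 to 38473648 on Rnor_6.0), the membrane protease that activates pro-atrial natriuretic peptide, was read almost wholly in the OM. The 15 Cx libraries held 2 reads in all, 1 in Cx LS replicate 5 and 1 in Cx HS14 replicate 8. The OM LS libraries measured 21.3, 0, 19.9, 10.9 and 21.8 CPM, the library at 0 being replicate 2. The 1153 reads of OM LS against 1 of Cx LS gave a ratio per counted read of 1243, with an exact 95% interval of 223 to 49153 that covers counting error only. *Corin* did not pass the low-count filter of the comparison of tissues with all 10 libraries. With 1 library omitted at a time it passed in 6 of 10 fits and was called higher in the OM in all 6, with an adjusted *P* of at most 0.0138, and DESeq2 called it as well. On the HS diet the OM libraries measured 5.49, 4.30, 3.83, 11.3 and 13.9 CPM at HS14 and 13.8, 8.12, 3.46, 2.69 and 3.60 CPM at HS21. Both groups overlapped OM LS, and neither ratio passed the test (log2 ratio -0.94 ± 0.84, adjusted *P* = 0.994; log2 ratio -1.22 ± 0.86, adjusted *P* = 0.706). Without OM LS replicate 2 the log2 ratio was -1.26 ± 0.42 at HS14, with an unadjusted *P* of 0.0133 and an adjusted *P* of 0.745, and -1.53 ± 0.48 at HS21, with an unadjusted *P* of 0.0102 and an adjusted *P* of 0.185.

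**Figure D2:**
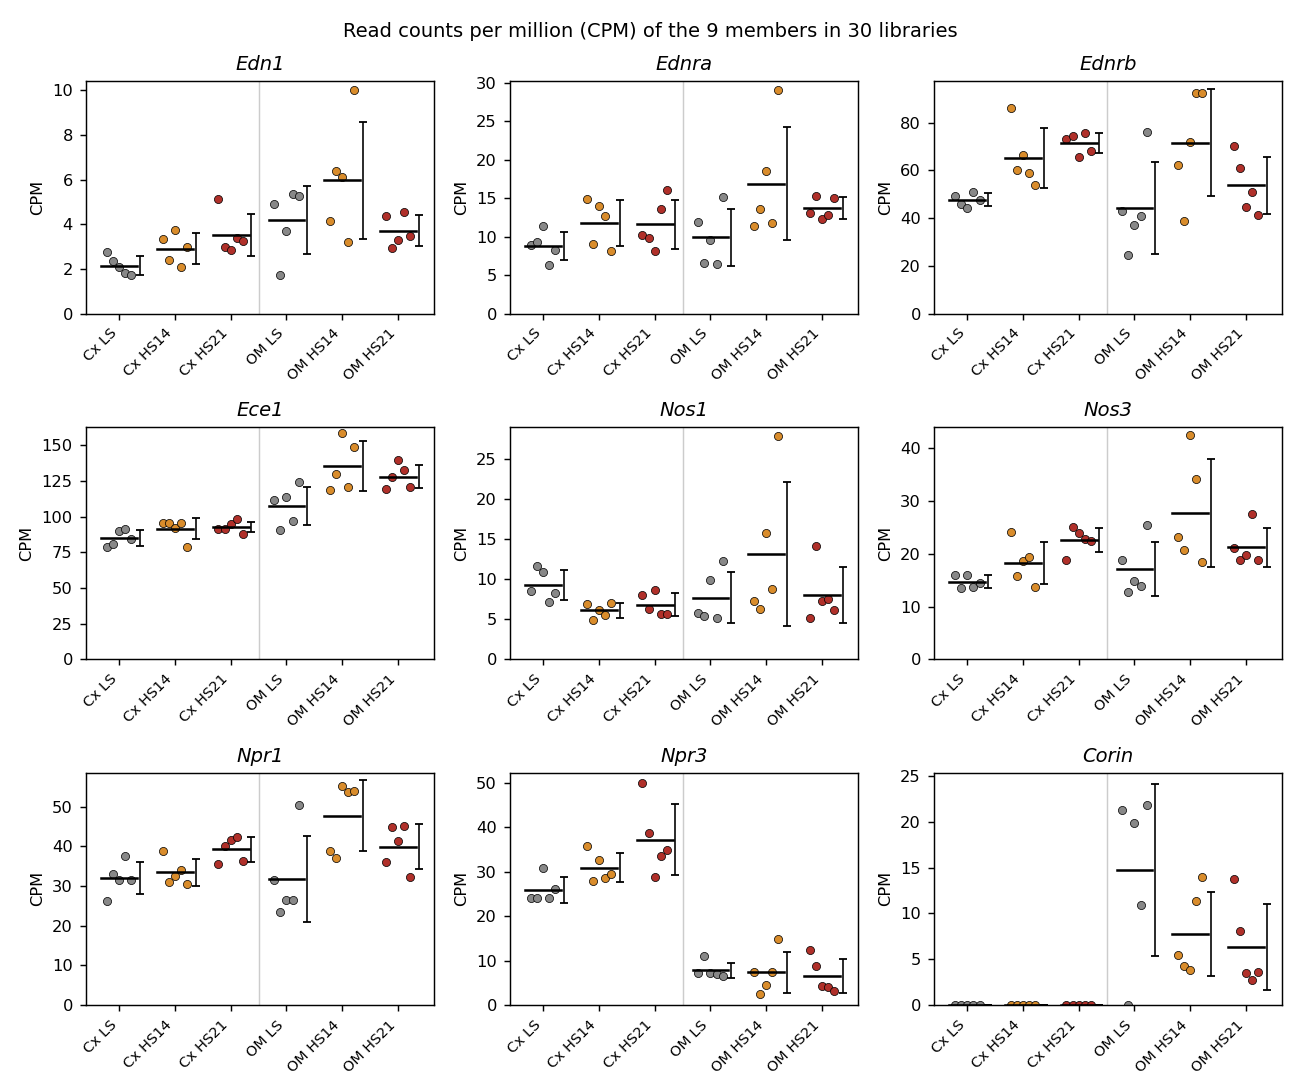
CPM of the 9 members in each of the 30 libraries, in order of replicate number within a group. Horizontal lines are group means and bars are 1 SD (n = 5). *Ednrb*, *Nos3* and *Edn1* were higher in every Cx HS21 library than in every Cx LS library, and OM groups were more widely spread than Cx groups for most members.

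In the Cx after 21 d on the HS diet, 5 of the 8 members tested rose and none fell: *Edn1*, *Ednrb*, *Nos3*, *Npr1* and *Npr3*. Of the 14299 genes tested in that comparison, 18.9% rose and 20.5% fell. The median log2 ratio over the 8 members was 0.46, against 0.00 over all genes tested. Because the members were chosen with earlier results of these data known, these contrasts with all genes are given as a description. The Cx libraries of 3 members, *Edn1*, *Ednrb* and *Nos3*, did not overlap between HS21 and LS, which held for 26.6% of all genes. *Corin* did not pass the low-count filter in the Cx. When libraries were scaled by total counts instead of TMM factors, the median of all genes at HS21 moved up by 0.13 on the log2 scale and the share of calls that were higher went from 47.9% to 72.7%. The 5 members rose under each of the 3 scalings tried.

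*Edn1* (ENSRNOG00000014361; chromosome 17, 22137324 to 22143324, minus strand), the gene of endothelin-1, was a low-count gene with 25 to 81 reads per Cx library. The Cx LS libraries measured 2.75, 2.35, 2.08, 1.84 and 1.73 CPM, and the HS14 libraries measured 3.36, 2.40, 3.73, 2.08 and 2.99 CPM. At HS21 the values were 5.15, 2.99, 2.83, 3.40 and 3.26 CPM. The HS14 libraries overlapped LS (log2 ratio 0.43 ± 0.21, adjusted *P* = 0.325), whereas every HS21 library was above every LS library (log2 ratio 0.71 ± 0.21, adjusted *P* = 0.0204). Replicate 11 was the highest at HS21, and without it the log2 ratio was 0.55. The call was lost when Cx LS replicate 5 was left out, with a log2 ratio of 0.64 and an adjusted *P* of 0.0519.

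*Ece1* (ENSRNOG00000014241; chromosome 5, 156215417 to 156318671) showed little difference. Its Cx levels were 85.1 ± 5.60 CPM on LS, 91.5 ± 7.42 at HS14 and 92.8 ± 3.76 at HS21. The groups overlapped at both times, and the ratio at HS21 did not pass the test (log2 ratio 0.12 ± 0.05, adjusted *P* = 0.0853). It passed only with scaling by total counts, where the log2 ratio was 0.25 and the adjusted *P* 0.00299.

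Of the endothelin receptors, *Ednrb* (ENSRNOG00000010997; chromosome 15, 88006977 to 88036354, minus strand) rose in the Cx at HS21. It measured 49.4, 45.9, 44.3, 51.0 and 47.6 CPM on LS and 85.9, 60.0, 66.4, 58.9 and 53.9 CPM at HS14. At HS21 it measured 72.9, 74.4, 65.7, 75.7 and 68.2 CPM. At both times every HS library was above every LS library. The ratio at HS21 was 1.5-fold (log2 ratio 0.58 ± 0.06, adjusted *P* = 3.57e-05), and that at HS14 did not pass the threshold (log2 ratio 0.44 ± 0.11, adjusted *P* = 0.0568). *Ednra* (ENSRNOG00000012721; chromosome 19, 33928356 to 33991703), the A receptor of vascular smooth muscle, overlapped between diets in the Cx. It measured 8.94, 9.25, 11.4, 6.32 and 8.28 CPM on LS and 10.2, 9.89, 8.15, 13.7 and 16.1 CPM at HS21 (log2 ratio 0.39 ± 0.20, adjusted *P* = 0.146).

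The nitric oxide synthases differed in sign. *Nos3* (ENSRNOG00000009348; chromosome 4, 7320668 to 7342410, minus strand), the endothelial enzyme, measured 16.0, 13.6, 15.9, 13.7 and 14.4 CPM in Cx LS. It measured 24.1, 15.7, 18.6, 19.4 and 13.6 CPM at HS14 and 18.9, 25.0, 23.9, 22.8 and 22.4 CPM at HS21. The HS14 libraries overlapped LS (log2 ratio 0.30 ± 0.13, adjusted *P* = 0.263), and the HS21 libraries were all above LS, by 1.53-fold (log2 ratio 0.62 ± 0.09, adjusted *P* = 0.000354). *Nos1* (ENSRNOG00000001130; chromosome 12, 44213943 to 44520341, minus strand), the neuronal enzyme, which the kidney expresses most in the macula densa, had its higher values on LS. The Cx libraries measured 8.56, 11.7, 10.9, 7.13 and 8.28 CPM on LS and 6.92, 4.87, 6.22, 5.55 and 7.02 CPM at HS14. At HS21 they measured 8.01, 6.24, 8.63, 5.62 and 5.64 CPM. Every HS14 library was below every LS library, but the ratio did not pass the test at HS14 (log2 ratio -0.61 ± 0.17, adjusted *P* = 0.0761) or at HS21 (log2 ratio -0.45 ± 0.18, adjusted *P* = 0.0658). DESeq2 called *Nos1* lowered at HS14, with an adjusted *P* of 0.0143. At HS21 *Nos1* was called lowered in 2 of the 10 fits with 1 library omitted, with adjusted *P* values of 0.0394 without Cx LS replicate 4 and 0.0324 without Cx HS21 replicate 13.

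Both natriuretic peptide receptors among the members rose in the Cx at HS21. *Npr1* (ENSRNOG00000014684; chromosome 2, 189840403 to 189856090, minus strand), the guanylyl cyclase receptor of atrial natriuretic peptide, measured 26.3, 33.0, 31.6, 37.5 and 31.6 CPM on LS and 35.6, 40.2, 41.6, 42.4 and 36.2 CPM at HS21. The groups overlapped, with 3 HS21 libraries above all LS libraries (log2 ratio 0.29 ± 0.09, adjusted *P* = 0.0237). *Npr1* at HS14 was at the LS level, with 33.4 ± 3.35 CPM against 32 ± 3.99 (log2 ratio 0.06 ± 0.09, adjusted *P* = 0.823). *Npr3* (ENSRNOG00000019184; chromosome 2, 61888950 to 61949926, minus strand) measured 24.1, 24.1, 30.8, 24.1 and 26.0 CPM on LS, 35.8, 28.0, 32.5, 28.6 and 29.4 CPM at HS14 and 49.9, 38.6, 28.8, 33.5 and 34.9 CPM at HS21. The single overlap at HS21 was between replicate 13 and LS replicate 3 (log2 ratio 0.52 ± 0.13, adjusted *P* = 0.00941). *Ednrb*, *Nos3*, *Npr1* and *Npr3* were called at HS21 in all 16 alternative fits, and *Edn1* in 15 of 16.

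At HS14 no member passed the test in the Cx, where 2.33% of 14181 genes did. Of the 8 members tested, 4 had an unadjusted *P* under 0.05, *Ednrb*, *Nos1*, *Nos3* and *Npr3*, as did 17.4% of all genes. *Ednrb* and *Nos1* were the members whose HS14 and LS libraries did not overlap, as was the case for 5.07% of all genes. DESeq2 called both, and limma on FPKM called no member. Cx HS14 replicate 10 stood apart by its markers. Its proximal tubule markers summed to 13736 CPM, against 18389 to 19083 in the rest of the group. Its thick ascending limb markers summed to 2921 CPM, against 1640 to 1818. *Ednrb* passed without that library (adjusted *P* = 0.0274), and also without replicate 6 (adjusted *P* = 0.0482). Between HS14 and HS21 in the Cx no member passed the test, while 16.2% of 14395 genes did. Leaving out Cx HS14 replicate 10 took the calls over all genes from 2330 to 3524, and still no member passed. By edgeR 2 members had an unadjusted *P* under 0.05, *Nos3* and *Npr1*, as did 33.6% of all genes, and DESeq2 and limma called none. The largest shift relative to its error was that of *Npr1* (log2 ratio 0.24 ± 0.08, adjusted *P* = 0.0712), which passed when Cx HS14 replicate 6 was left out, with an adjusted *P* of 0.0386.

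**Figure D3:**
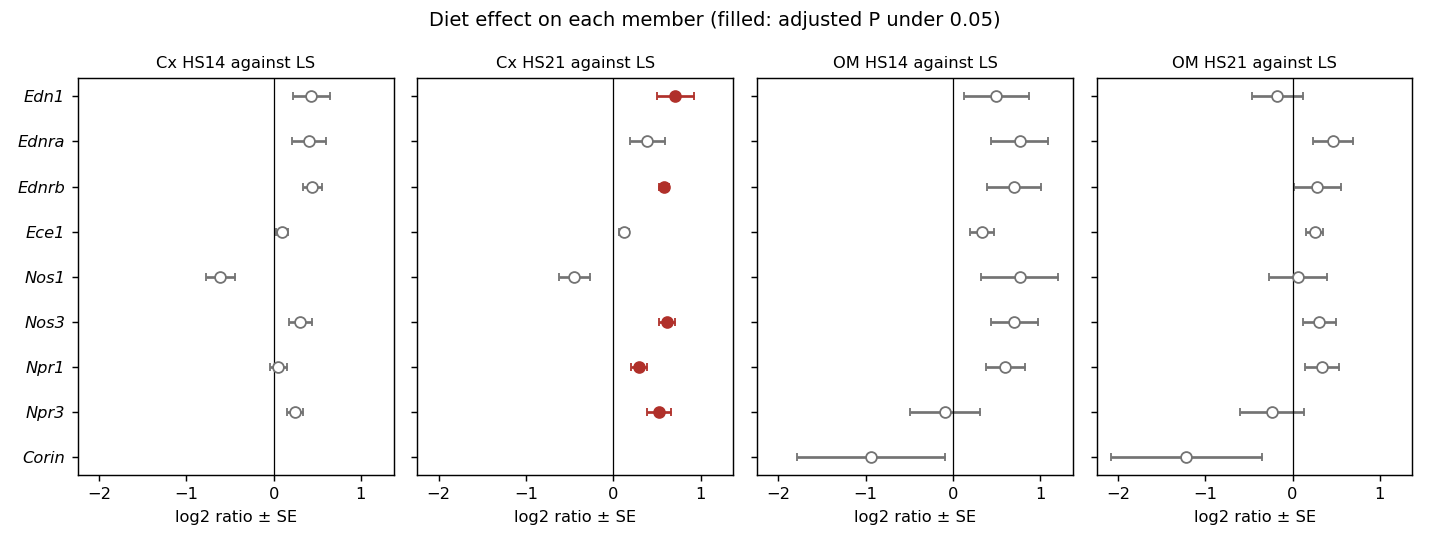
Log2 ratio of each member against LS with its SE in the 4 comparisons of a tissue and time with LS, where filled points have an adjusted *P* under 0.05. The filled points are *Edn1*, *Ednrb*, *Nos3*, *Npr1* and *Npr3* in the Cx at HS21, and the OM bars are wider than the Cx bars for most members. The 2 comparisons of a tissue share its LS libraries.

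In the OM no member passed the test at HS14 or at HS21, by edgeR, DESeq2 or limma. Over all genes, 0.00694% of 14417 passed at HS14 and 0.769% of 14555 at HS21. At HS14, 5 of the 9 members had an unadjusted *P* under 0.05, all with higher levels on the HS diet, as against 5.73% of all genes in either direction. Without OM LS replicate 2 none of these 5 did, the lowest being that of *Npr1* at 0.0517. Over the fits with 1 library left out, the log2 ratio at HS14 ran from 0.54 to 0.97 for *Ednrb*. It ran from 0.50 to 0.82 for *Npr1* and from 0.50 to 0.88 for *Nos3*, and none of these 3 was called in any of them. *Npr1* measured 31.5, 23.4, 26.5, 26.4 and 50.3 CPM on LS and 38.8, 37, 55.3, 53.6 and 53.9 CPM at HS14 (log2 ratio 0.60 ± 0.22, unadjusted *P* = 0.0224, adjusted *P* = 0.696). *Nos3* measured 18.9, 12.8, 14.8, 14.0 and 25.4 CPM on LS and 23.1, 20.8, 42.5, 34.2 and 18.4 CPM at HS14 (log2 ratio 0.70 ± 0.27, unadjusted *P* = 0.0256, adjusted *P* = 0.727). In both genes the groups overlapped, and OM LS replicate 5 was the highest of the LS libraries. *Ednrb* went from 44.3 ± 19.1 to 71.5 ± 22.4 CPM, *Ednra* from 9.94 ± 3.69 to 16.9 ± 7.39 CPM and *Ece1* from 108 ± 13.5 to 135 ± 17.6 CPM. These differences did not pass the adjustment over all genes, with adjusted *P* values of 0.866, 0.839 and 0.779.

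OM HS14 replicate 10, the shallow library, had the highest OM value of *Edn1*, *Ednra*, *Nos1* and *Npr3*. In the study's quality summary that library also had the lowest mapping rate and the lowest share of exonic bases of all libraries. Its *Nos1* level was 27.9 CPM, against 6.33 to 15.7 in the other 4 libraries of the group. Leaving out that library together with OM LS replicate 2, a choice made after seeing the data, brought the log2 ratio at HS14 from 0.77 to 0.20 for *Nos1*, from 0.49 to 0.05 for *Edn1* and from 0.76 to 0.36 for *Ednra*. That of *Nos3* went from 0.70 to 0.72 and kept an unadjusted *P* under 0.05, at 0.0264. Those of *Npr1*, *Ednrb* and *Ece1* went to 0.45, 0.43 and 0.24, and no member passed the test. At HS21 the log2 ratios in the OM ran from -0.23 for *Npr3* to 0.47 for *Ednra* apart from *Corin*, and without OM LS replicate 2 from -0.37 for *Edn1* to 0.35 for *Ednra*. With all libraries *Ece1* alone had an unadjusted *P* under 0.05 (log2 ratio 0.25 ± 0.09, unadjusted *P* = 0.0212, adjusted *P* = 0.300), as did 11.2% of all genes. *Edn1* measured 4.35, 2.94, 3.28, 4.55 and 3.47 CPM at HS21, within the range of OM LS. The low end of that range, 1.71 CPM, was replicate 2. The other OM LS libraries ran from 3.69 to 5.34 CPM, and the HS21 values of 2.94, 3.28 and 3.47 CPM were below all of them.

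The difference between the tissues in the response to diet was tested as an interaction. No member passed at HS14, where 0% of 15091 genes did, and none at HS21, where 0.665% of 15194 genes did, and DESeq2 and limma called no member either. By edgeR 1 of the 9 members had an unadjusted *P* under 0.05 at each time, beside 3.7% of all genes at HS14 (559 genes) and 15.6% at HS21. DESeq2 called 8 genes at HS14 after adjustment. The response of *Nos1* at HS14 was higher in the OM than in the Cx by 1.34 ± 0.49 on the log2 scale, with an unadjusted *P* of 0.0134 and an adjusted *P* of 0.99994. It was 0.91 ± 0.38 without OM HS14 replicate 10 and 1.24 ± 0.51 without OM LS replicate 2, with unadjusted *P* values of 0.0293 and 0.0250. The response of *Edn1* at HS21 differed between OM and Cx by -0.89 ± 0.36 on the log2 scale, with an unadjusted *P* of 0.0244 and an adjusted *P* of 0.250. Without OM LS replicate 2 that difference was -1.06 ± 0.29 and passed, with an adjusted *P* of 0.0305. The number of all genes called went from 101 of 15194 to 1275 of 15391 tested. *Corin* gave no usable interaction, being at or near 0 in the Cx.

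Cell type markers also differed between the diets in the Cx. Of the 11 endothelial markers tested, 5 were raised at HS21, and their sum ranged from 963 to 1050 CPM on LS and from 1012 to 1302 at HS21. Of 7 podocyte markers 6 were raised, with sums of 693 to 792 CPM on LS and 872 to 1050 CPM at HS21. All 11 leukocyte markers tested were raised, and their sum went from a range of 153 to 196 CPM to one of 312 to 915. All 8 proximal tubule markers were lowered, with sums of 18866 to 20852 CPM on LS and 10849 to 14452 at HS21. No marker on these 4 lists was at 0 in all libraries of a group. Markers of the distal nephron were raised in the same libraries. Of 6 principal cell markers 5 were raised, with sums of 670 to 744 CPM on LS and 975 to 1624 CPM at HS21. All 5 intercalated cell markers were raised, with sums of 722 to 936 CPM on LS and 1020.1 to 1688 CPM at HS21. All 3 distal convoluted tubule markers tested were raised, with sums of 1049.9 to 1272 CPM on LS and 1517 to 2863 CPM at HS21, and *Pvalb*, also on that list, was at 0. The other lists were mixed. Of 5 thick ascending limb markers 3 were raised and 1 lowered. Of 8 smooth muscle and pericyte markers 2 were raised and 1 lowered, with sums of 265 to 318 CPM on LS and 269 to 384 CPM at HS21. How far these shifts enter the members' ratios was not tested beyond the comparison that follows.

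To set each member beside a cell type known to express it, its CPM was divided by the summed CPM of that type's markers in each library, and the log2 of this quotient was compared between 5 and 5 libraries by a two-sided exact permutation test. The smallest *P* this design allows is 0.00794, and 32 tests were made over 8 members and 4 comparisons with LS. Over the endothelial markers, *Ednrb* was higher in Cx HS21 than in Cx LS by 0.39 and *Nos3* by 0.42 on the log2 scale. In both the groups did not overlap, and the exact *P* was 0.00794 with an adjusted value of 0.0635. At HS14 *Ednrb* over the same markers was higher by 0.43, with the same exact *P* and adjusted value. *Edn1* over endothelial markers was higher by 0.50 at HS21, with groups that overlapped, an exact *P* of 0.0635 and an adjusted value of 0.226. *Edn1* and *Ednrb* were not set beside the principal cell markers. *Ednra* over smooth muscle and pericyte markers was higher by 0.43 at HS14 and by 0.21 at HS21, with overlap at both times. Its exact *P* values were 0.0238 and 0.325, with adjusted values of 0.127 and 0.521. *Npr1* over podocyte markers differed by -0.01 at HS21 (exact *P* = 0.905) and *Npr3* by 0.19 (exact *P* = 0.167). *Nos1* over thick ascending limb markers, which summed to 1467 to 2059 CPM on LS and 2336 to 3195 at HS21, differed by -1.08 at HS21. The groups did not overlap, and the exact *P* was 0.00794 with an adjusted value of 0.0635. The markers alone differed by 0.63 and *Nos1* alone by -0.45, so the rise of the markers is a large part of that quotient. No list was made for the macula densa, and *Nos1* per expressing cell was not measured. No pair passed the adjusted threshold, which the 4 tests at the smallest possible *P* could not reach on their own, and in the OM the lowest exact *P* was 0.167. *Corin* was not tested this way because the Cx libraries and OM LS replicate 2 were at or near 0.

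**Figure D4:**
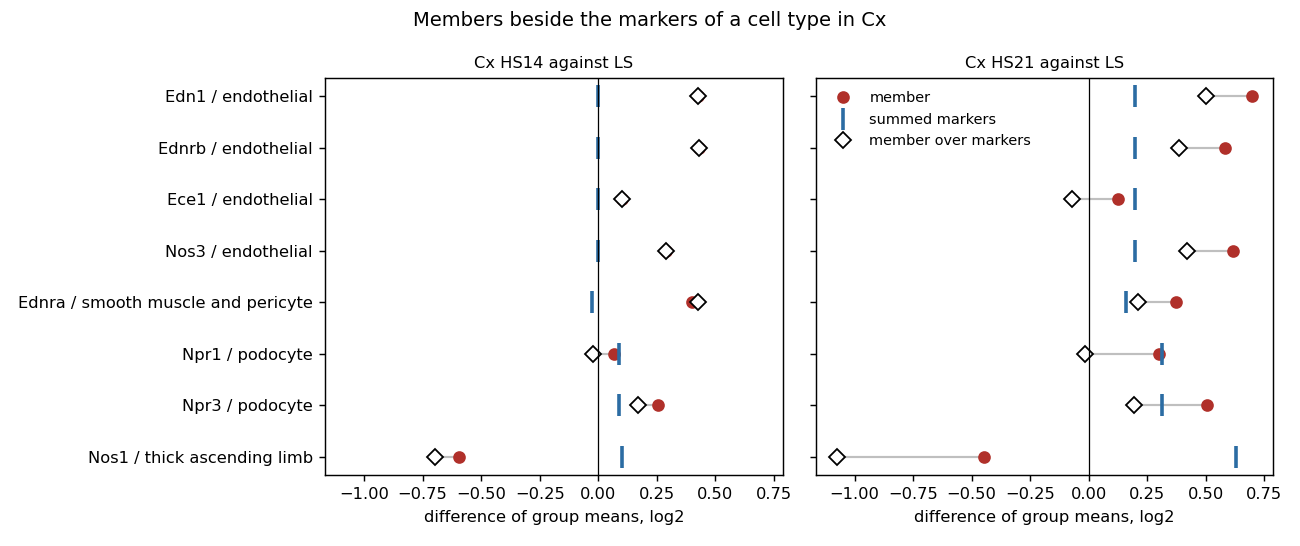
Differences of group means in the Cx on the log2 scale, at HS14 (left) and HS21 (right) against LS, for each member (filled circles), the summed markers of the cell type beside it (vertical ticks) and the quotient of the pair (open diamonds). At HS21 the diamonds of *Ednrb*, *Nos3*, *Edn1* and *Npr1* are at 0.39, 0.42, 0.50 and -0.01. No pair passed the adjusted threshold.

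Pathway genes other than the members were examined in 4 lists, with 51 of 53 genes found. In the Cx at HS21, 11 of the 44 genes tested rose and 14 fell, beside 18.9% and 20.5% of all genes, with a median log2 ratio of 0.02 against 0.00 over all genes. Genes of nitric oxide synthesis and its regulators split into 5 that rose and 8 that fell of 21 tested, with a median of -0.13. Those that fell included *Agxt2* and *Ddah1*, whose enzymes break down the endogenous synthase inhibitor asymmetric dimethylarginine. *Agxt2* went from 1799 ± 61.6 to 1089 ± 152 CPM (log2 ratio -0.73 ± 0.09, adjusted *P* = 9.94e-05) and *Ddah1* from 1181 ± 63.7 to 752 ± 61.8 CPM (log2 ratio -0.65 ± 0.07, adjusted *P* = 3.59e-05). *Ass1*, which with *Asl* remakes arginine from citrulline, and *Slc7a7*, a basolateral carrier of basic amino acids, also fell (log2 ratio -0.58 ± 0.08, adjusted *P* = 0.000191; log2 ratio -0.74 ± 0.08, adjusted *P* = 4.12e-05). *Ddah1* was also lower at HS14 (log2 ratio -0.27 ± 0.06, adjusted *P* = 0.0476). The proximal tubule markers fell in the same libraries, and their part in these ratios was not tested.

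Among the genes of this list that rose at HS21 were *Cav1*, whose product caveolin-1 binds and restrains the endothelial synthase, *Slc7a1*, a carrier that takes up arginine, and *Arg2*, a mitochondrial arginase. *Cav1* went from 21.1 ± 2.56 to 36.9 ± 7.86 CPM (log2 ratio 0.80 ± 0.14, adjusted *P* = 0.00114). *Slc7a1* had a log2 ratio of 0.62 ± 0.12 and *Arg2* one of 0.61 ± 0.21. Of the nitric oxide receptor and cyclic GMP genes, 1 rose and 2 fell of 9 tested. *Prkg2*, cyclic GMP-dependent protein kinase 2, fell from 12.2 ± 0.779 to 5.13 ± 1.31 CPM with no overlap (log2 ratio -1.25 ± 0.16, adjusted *P* = 0.000195), the largest ratio in absolute size of the 4 lists at HS21. *Pde1a*, a calmodulin-dependent phosphodiesterase, rose (log2 ratio 0.64 ± 0.12, adjusted *P* = 0.00189).

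In the endothelin pathway, 2 genes rose and 2 fell of 7 tested at HS21. *Plcb1*, a phospholipase C that acts after Gq-coupled receptors, fell from 68.3 ± 6.18 to 43.9 ± 3.30 CPM (log2 ratio -0.64 ± 0.07, adjusted *P* = 7.99e-05). In the natriuretic peptide system 3 rose and 2 fell of 7 tested. *Guca2a*, the gene of guanylin, a peptide of salt handling, rose from 5.06 ± 1.42 to 9.87 ± 2.44 CPM (log2 ratio 0.96 ± 0.23, adjusted *P* = 0.00591), and *Mme*, neprilysin, which degrades natriuretic peptides, rose as well (log2 ratio 0.69 ± 0.20, adjusted *P* = 0.0168). None of the 44 pathway genes tested in the OM at HS14, or of the 45 at HS21, passed the edgeR test, and 3 and 5 of them had an unadjusted *P* under 0.05, beside 5.73% and 11.2% of all genes.

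**Figure D5:**
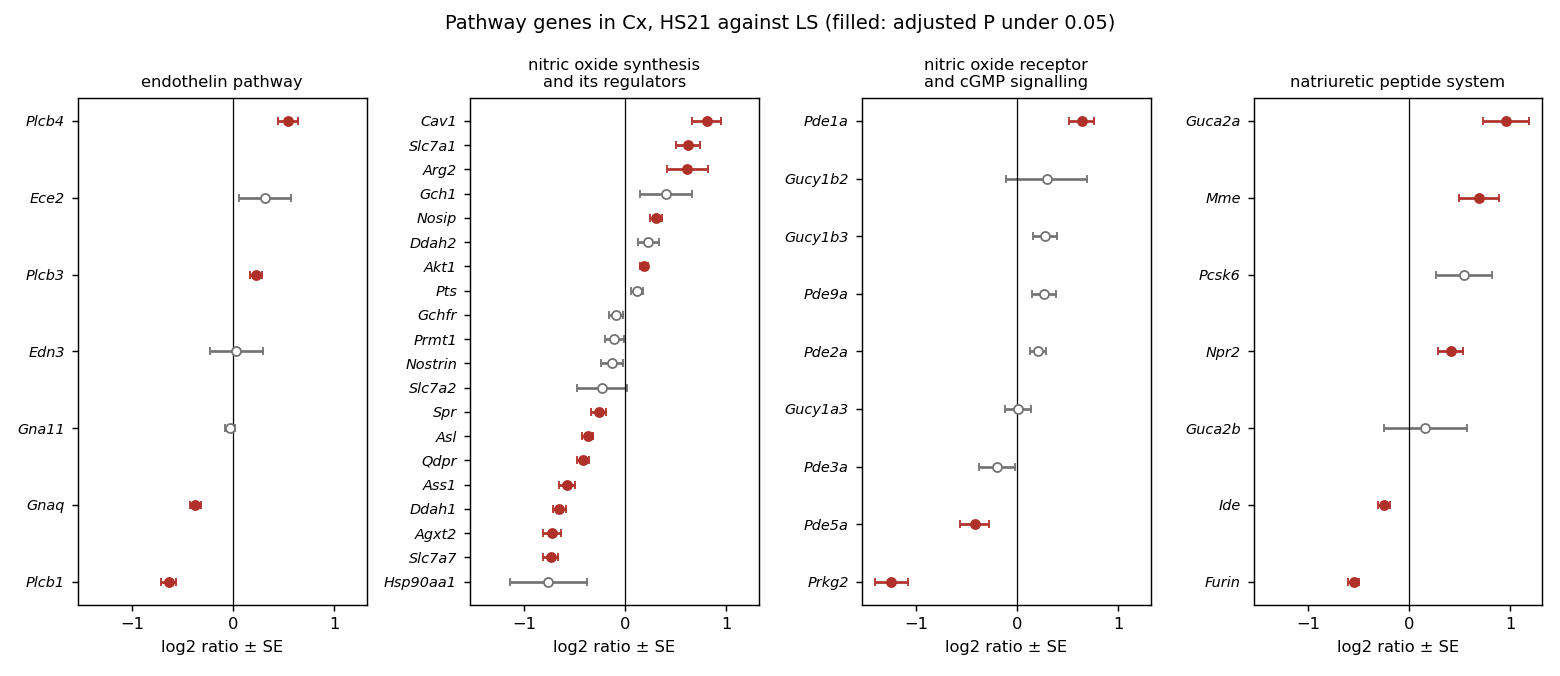
Log2 ratio with SE of 43 of the 44 pathway genes tested in the Cx, HS21 against LS, in 4 panels by list and ordered by ratio. Filled points have an adjusted *P* under 0.05. Each list holds genes on both sides of 0, and *Prkg2* is farthest from 0 at -1.25.

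For each member, the 2 protein-coding genes with the most similar profile were sought among 13165 genes, by the root mean square difference in log2 CPM over the 30 libraries after each gene's mean was subtracted. *Nos3* and *Npr1* had the same nearest gene, *Hspa12b*, at 0.18 and 0.17. The second gene was *Csrp1* at 0.22 for *Nos3* and *Rasip1* at 0.18 for *Npr1*. *Npr3* was nearest to *Trpm6* (0.34) and *Klhl3* (0.36), *Ednrb* to RGD1304884 (0.23) and *Fmnl2* (0.26), and *Ece1* to *Tpd52* (0.12) and *Prrc2a* (0.13). Both *Trpm6* and *Klhl3* are on the list of distal convoluted tubule markers, beside which *Npr3* was not tested. *Edn1* was nearest to *Clip2* (0.32), *Ednra* to *Tbc1d2b* and *Zcchc24* (both 0.26), and *Nos1* to *Plxnd1* (0.38) and *Clec16a* (0.39). *Corin* had the least similar neighbors, *Pcsk6* at 0.97 and *Snhg11* at 1.07, on a profile whose own SD was 3.01. *Pcsk6*, the gene of a proprotein convertase that cleaves corin, measured 154 ± 76.3 CPM in OM LS and 2.03 ± 0.432 CPM in Cx LS. These distances share the libraries and the tissue difference, and they are given as a description.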

How the data were processed

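Poly(A)-selected, unstranded paired-end libraries were aligned by the authors with HISAT2 2.0.5 to Ensembl Rnor_6.0 and counted per gene with featureCounts 1.5.0-p3, so reads of a gene and of an antisense partner cannot be told apart. The authors deposited raw whole-number counts per gene. The deposited FPKM values, scaled by the authors for gene length and library size, were used only in an alternative. The deposited log2 fold changes and p-values of the authors' own DESeq2 comparisons, and the signal columns with the authors' group means, were not used. All 30 count columns matched a labelled library, and 0 columns were left unmatched. No library repeated another of its group.

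Genes were tested with edgeR 4.0.16 in R 4.3.3 (filterByExpr, TMM, quasi-likelihood F-test) on the libraries of the groups compared, without covariates. The Benjamini-Hochberg adjustment covered every gene tested in a comparison, with a threshold of 0.05. Errors of log2 ratios are SE. CPM used TMM-scaled library sizes over the 30 libraries, and log2 CPM a prior count of 2. Alternatives were DESeq2 1.42.0, limma 3.58.1 on log2(FPKM + 1), other scalings, no filter, all 15 libraries of a tissue, the replicate number as a block and each library left out. The fits were tested on simulated data in which 200 genes were changed by 1 on the log2 scale. The fit of the Cx at HS21 recovered 78% of them, that of the OM 47.5% and the interaction at HS21 44%. Of the calls made, 7.69%, 7.77% and 5.38% were false. An absent call in the OM or the interaction thus does not show an absent response.

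The members, pathway lists and markers were chosen with earlier results of these data known. Named were all members, every pathway gene called in the Cx at HS14 or in the OM, the 12 with the largest ratios among those called in the Cx at HS21, and the 2 genes most alike each member. Of the genes so named 2 are not reported here, and the counts over the lists include them where they were tested. Of the 53 pathway genes 51 were found and of the 67 markers 66, with 2 genes under an older symbol.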

Additional observations from a re-analysis of the deposited data

Results flagged for a closer look

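In 6 of the 51 member groups examined, 1 library lay far from the other 4 of its group, as judged by Dixon's test. Chance alone flags about 1 group in 20. In the Cx these were *Edn1* at HS21, where replicate 11 was at 5.15 CPM and the others at 2.83 to 3.40, *Ece1* at HS14, where replicate 10 was at 78.5 CPM and the others at 92.1 to 95.9, and *Npr3* on LS, where replicate 3 was at 30.8 CPM and the others at 24.1 to 26.0. In the OM these were *Nos1* at HS21, where replicate 12 was at 14.1 CPM and the others at 5.16 to 7.48, *Nos3* at HS21, where replicate 14 was at 27.6 CPM and the others at 18.8 to 21.1, and *Npr3* on LS, where replicate 2 was at 10.9 CPM and the others at 6.63 to 7.25. The last of these libraries is the one that stood apart by its distal convoluted tubule and proximal tubule markers. The part of those markers in the value was not tested.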

How the results depend on the processing

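The number of members called in the Cx at HS21 was 5 under each of the other tests, and 5 or 6 under other scalings. When each library was left out it was 4 to 6, the 4 being without Cx LS replicate 5. Between the tissues on LS it was 3, and 2 to 4 when each library was left out. In the Cx at HS14 it was 0, but 2 with DESeq2 (*Ednrb* and *Nos1*), 1 with all 15 Cx libraries in the fit (*Ednrb*, adjusted *P* = 0.0379) and 0 to 1 when each library was left out (*Ednrb*, without HS14 replicate 6 or 10). Between HS21 and HS14 in the Cx it was 0, but 1 with total count scaling (*Npr1*, adjusted *P* = 0.0208) and 0 to 1 when each library was left out. For the interaction at HS21 it was 0, and 0 to 1 when each library was left out (*Edn1*, without OM LS replicate 2). No called log2 ratio changed sign, and the causes of these changes were not tested.

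Over all genes, the calls in the Cx at HS14 went from 330 to 922 with DESeq2 and to between 85 and 471 when 1 library was left out. In the OM at HS14 they went from 1 to 110 with DESeq2, to 2 with all 15 libraries, to 0 with total count scaling or no filter and to 0 to 4 with 1 library left out, with 6 when OM LS replicate 2 and OM HS14 replicate 10 were both out. In the OM at HS21 they went from 112 to 721, 199 and 44 with DESeq2, all 15 libraries and total count scaling, and to 9 to 175 with 1 library left out. Between HS21 and HS14 in the Cx they went from 2330 to between 1029 and 3524 with 1 library left out. For the interaction at HS21 they went from 101 to 540 with DESeq2, 183 with limma and 58 with no filter, and to 42 to 1275 with 1 library left out. Total count scaling moved the share of higher calls from 40.1% to 76.4% between HS21 and HS14 in the Cx, from 52.2% to 75.1% between tissues and from 67.3% to 51.4% for the interaction at HS21.

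Libraries of both tissues share replicate numbers, but no source used here says that equal numbers are 1 rat. The deviations of same-numbered libraries correlated at -0.07 to 0.44 over 15 pairs, 13 of which were most alike their own number, which is a hint from the data and not from the design. With the replicate number as a block (replicate block), 2 members were called between the tissues on LS, *Edn1* having an adjusted *P* of 0.0770, against 3 without it, and 0 in both interactions. The counts over all genes were 5011 between tissues and 94 for the interaction at HS21. *Edn1* had 20 to 107 reads per library, and the part of depth in its spread was not tested.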

Other observations

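Outside the member list, the locus LOC497963, which the annotation describes as similar to the inducible nitric oxide synthase, was looked at because *Nos2* had no row, and it was chosen after its values were seen. It had 0 reads in every Cx LS library and 0 to 2 in every OM LS library. At HS21 in the Cx it had 17 reads in replicate 14 and 36 in replicate 15, and 0 to 2 in the other 3 libraries. In the OM at HS21 the same replicate numbers had 4 and 10 reads, and the other 3 had 0 to 2. The leukocyte markers of Cx HS21 summed to 654 CPM in replicate 14 and 915 in replicate 15, and to 312 to 506 CPM in the others.

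Some pathway genes differed strongly between the tissues on LS, and these too were chosen after their values were seen. *Edn3*, the gene of endothelin-3, measured 32.1 ± 17.6 CPM in the OM and 1.48 ± 0.338 CPM in the Cx (log2 ratio 4.42 ± 0.49, adjusted *P* = 7.35e-05). *Gucy1a3*, a subunit of the nitric oxide receptor, measured 14.7 ± 2.48 CPM in the OM and 59.8 ± 9.59 CPM in the Cx (log2 ratio -2.03 ± 0.15, adjusted *P* = 5.24e-06). The other listed subunits went both ways. *Gucy1b3* was called lower in the OM (log2 ratio -1.32 ± 0.23). *Gucy1b2* and *Gucy1a2* were called higher there (log2 ratios 3.92 ± 0.64 and 1.24 ± 0.33). *Prkg2* was at 0.357 ± 0.407 CPM in the OM and 12.2 ± 0.779 CPM in the Cx (log2 ratio -5.16 ± 0.55, adjusted *P* = 5.85e-05). Of the 46 pathway genes tested between tissues, 13 were higher and 16 lower in the OM, beside 21.3% and 19.5% of all genes. Without OM LS replicate 2 the log2 ratios were 4.66 ± 0.27 for *Edn3*, -2.08 ± 0.15 for *Gucy1a3* and -5.95 ± 0.41 for *Prkg2*.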
